A study of Hydrangea macrophylla with 27 samples.

Results

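Mitogen-activated protein kinases (MAP kinases) and the kinases above them were followed in stems of Hydrangea macrophylla 'Wudu' after mechanical bending. A cluster of assembled transcripts was included when the Swiss-Prot description in its deposited annotation named a mitogen-activated protein kinase and its expected counts over all libraries summed to at least 100. Of 142016 clusters, 68 carried such a description and 62 reached that total. The 6 others did not. The 2 clusters just inside the limit were a MEKK1 match (Cluster-9242.4897) with 107 counts in total and an NTF4 match (Cluster-18671.0) with 132. The 2 just outside it were a YDA match (Cluster-9242.29976) with 79.84 counts and an MPK4 match (Cluster-9242.86002) with 91.

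Whole stems of wild-type plants were harvested in 9 groups of 3 libraries. Bent stems, at 1, 3, 24 and 72 h, came from plants that a moving plastic curtain had bent 12 times in a single morning, each time to 30° from vertical for about 30 s. Unbent stems at the same 4 times had no bending, and a further group was taken 15 min before the treatment. Plants were grown from micro-cuttings of 1 cultivar under light-emitting diodes with a 16 h photoperiod, in all 9 groups. The labels call the replicates biological but do not say how many plants entered each library, so the p-values measure the spread between these samples.

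MAP kinases act at the end of a relay: a MAP kinase kinase kinase (MAPKKK) phosphorylates a MAP kinase kinase (MAPKK), which phosphorylates and so activates a MAP kinase (MAPK). In Arabidopsis the relay carries signals of immunity, cold, drought and wounding, and other branches act in stomatal patterning and in the division of cells. Arabidopsis transcripts of MEKK1 and MPK3 are known to accumulate after touch, although the kinases themselves are switched on by phosphorylation, which RNA levels do not report.

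The 62 clusters held 22 MAPKs, 7 MAPKKs, 31 MAPKKKs, a single match to a MAPKKKK and a single match to a MAP kinase-binding protein. Arabidopsis was the source of 43 of the best matches, tobacco of 9, rice of 5, alfalfa of 2 and petunia of 1. The other 2 were a human protein, MAP4K2, and a Xenopus protein, mapkbp1, whose names describe animal genes. A symbol follows the numbering of its own species, so that MPK7 stands for an Arabidopsis match (Cluster-9242.52835) and also for a rice match (Cluster-9242.66128). The 62 clusters had 29 different names, and 15 names were shared by 48 clusters. MAPKKK17 was the name of 6 clusters, and MEKK1, NPK1 and YDA of 5 each. Such clusters can be paralogs, alleles or fragments that share reads, so the split of counts between clusters of 1 name is uncertain. A kinase domain was listed for 50 of the 62, and a second protein database named a MAP kinase or an upstream kinase for 50. The clusters were 420 to 6365 bases long, with a median of 2458.

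Total expected counts were 14353084 to 23113843 per library, with a median of 17221647, and the kinase clusters took 0.141% to 0.185% of them. Ribosomal RNA made up 2.68% to 8.44% of the counts. The 3 libraries highest in it were replicate 2 before bending with 8.44%, replicate 2 of bent stems at 1 h with 6.96% and replicate 2 of bent stems at 3 h with 5.73%. Clusters counted as viral, 30 of them, took 2.32% to 6.88% of the counts. At 3 h they took 2.78% ± 0.516 in bent stems and 4.52% ± 1.14 in unbent stems (SD, n = 3 each). Those libraries did not overlap. At 1 h the shares were 3.05% ± 0.372 and 3.37% ± 1.31, and before bending 5.36% ± 0.94. The part of viral reads in the kinase results was not tested. Whole stems hold many cell types, and fewer cells of a type cannot be told apart from less RNA per cell. Markers of xylem, of phloem, of epidermis, of meristem and cell cycle, and of photosynthetic tissue were all present in every library. In that order, their summed levels were 769 to 1820, 362 to 530, 46.5 to 111, 311 to 386 and 3830 to 8290 CPM (counts scaled to library depth by edgeR with TMM).

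Among all 62 clusters, levels were compared in the deposited FPKM, which allows for cluster length. The highest mean over the 27 libraries was that of an MPK9 match (Cluster-9242.52106), at 59.1 FPKM. In Arabidopsis MPK9 acts in guard cells. Next came the MAPKK MKK9 (Cluster-9242.58900), which in Arabidopsis activates MPK3 and MPK6, at 58.0 FPKM, and an MPK16 match (Cluster-9242.46945) at 57.6 FPKM. Over the 27 libraries MPK9 ran from 42.3 to 70.5 FPKM, MKK9 from 23.7 to 126 FPKM and MPK16 from 46.9 to 67.1 FPKM. These ranges pool all 9 groups, and the order of the clusters differed between groups. Before bending, MPK9 (60.5 to 67.3 FPKM) lay above MKK9 (37.6 to 53.2 FPKM) in all libraries. In bent stems at 3 h, MKK9 (124 to 126 FPKM) lay above MPK9 (55.5 to 58.0 FPKM). The MPK16 match was only 948 bases long and had no kinase domain listed. The alfalfa match MMK2 (Cluster-9242.30622), which the deposited KEGG column calls MPK4, followed at 28.3 FPKM.

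By tier, MAPK clusters had a median of 12.4 FPKM, and 7 of 22 lay below 10 FPKM. For MAPKKs the median was 10.2 FPKM, and 3 of 7 lay below 10 FPKM. MAPKKK clusters had a median of 4.61 FPKM, with 27 of 31 below 10 FPKM. The most abundant MAPKKs after MKK9 were the 2 matches to MKK5, a kinase that acts with MKK4 above MPK3 and MPK6 in Arabidopsis, at 20.7 FPKM (Cluster-9242.50812) and 13.9 FPKM (Cluster-9242.35547). The most abundant MAPKKKs were MAPKKK5 (Cluster-9242.37097) at 19.3 FPKM, MEKK1 (Cluster-9242.61487) at 14.0 FPKM and the tobacco match NPK1 (Cluster-9242.56640) at 12.6 FPKM. In Arabidopsis MAPKKK5 takes part in the response to chitin, and MEKK1 acts above MKK1, MKK2 and MPK4. Tobacco NPK1 is needed for the cell plate to grow during cytokinesis.

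**Figure D1:**
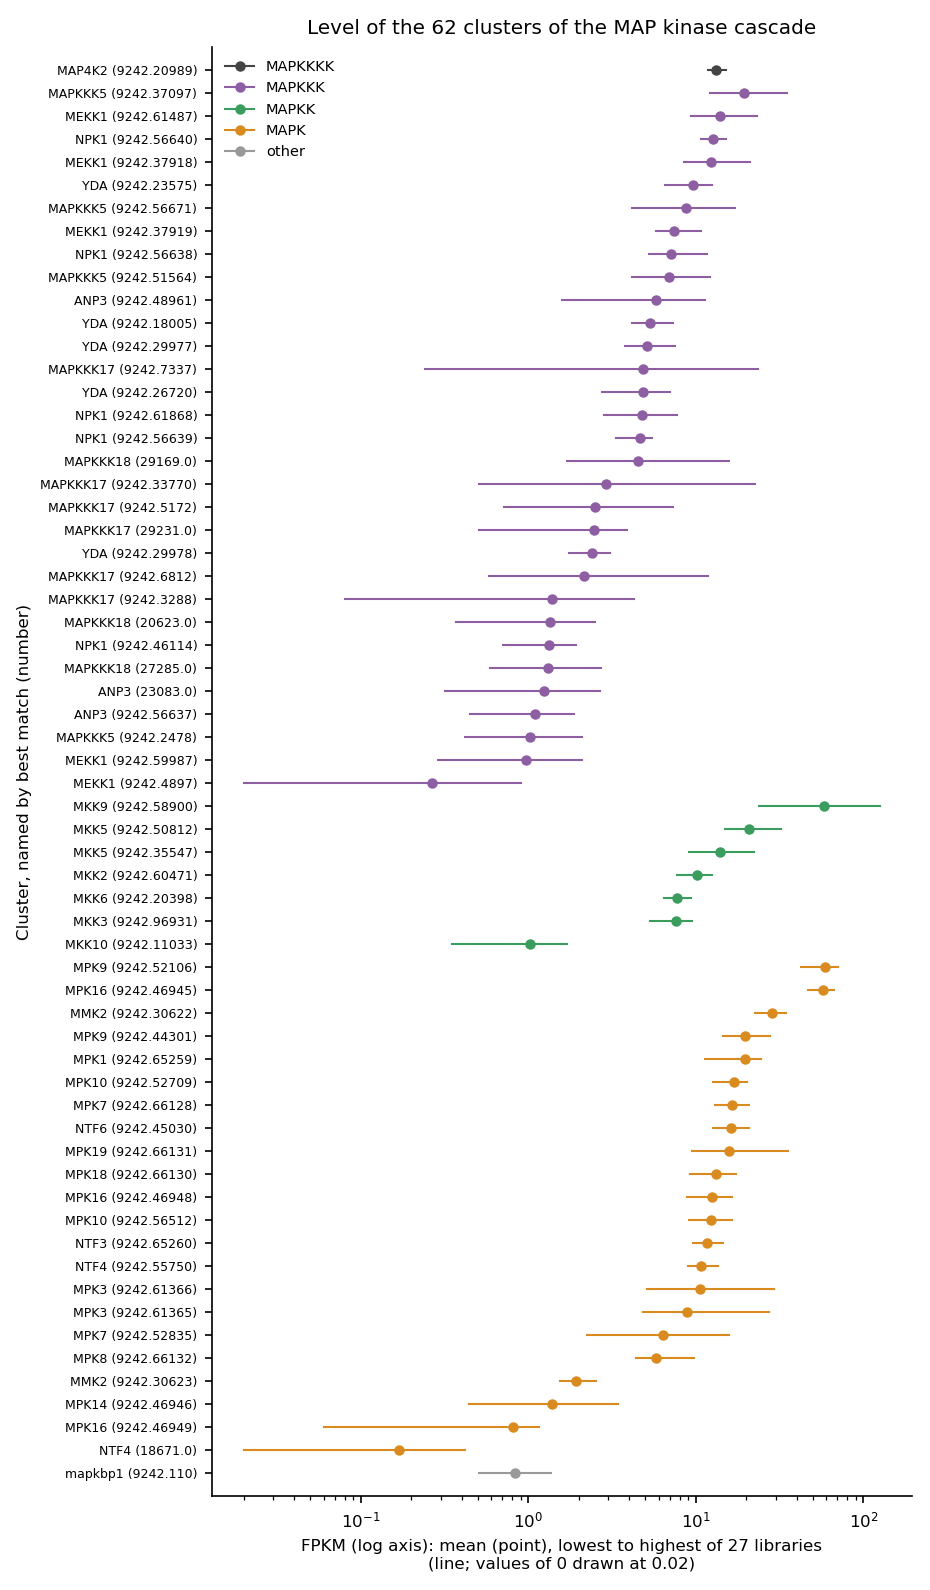
Mean level of each of the 62 clusters in FPKM on a log axis (points), with the lowest and highest of the 27 libraries (lines), coloured by tier. MPK9, MKK9 and MPK16 lead at 59.1, 58.0 and 57.6 FPKM, and most MAPKKK clusters lie below 10 FPKM.

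Bending was compared at each time with unbent stems of the same time, for the 60 clusters whose counts sufficed for the test. The NTF4 and MEKK1 matches with 132 and 107 counts were not tested. At 1 h, 7 of the 60 clusters passed edgeR's quasi-likelihood test at an adjusted p under 0.05, that is 11.7%, against 1.93% of all 52918 clusters tested. Higher in bent stems were 5 of them (background 1.11%) and lower were 2 (background 0.814%). The median log2 fold change of the 60 was 0.02, and that of all clusters 0.00. All bent libraries lay above all unbent ones in 12 of the 60 and below them in 4, whereas 16.6% of all clusters had groups that did not overlap.

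The largest rises at 1 h were in 2 of the 6 matches to MAPKKK17, a kinase that in Arabidopsis is induced by abscisic acid and acts above MKK3. MAPKKK17 (Cluster-9242.33770) had 37.1, 18.8 and 13.4 CPM in bent stems, against 5.96, 6.08 and 7.46 CPM in unbent stems. Every bent library lay above every unbent library, and the bent libraries spread widely. The log2 fold change was 1.82 ± 0.27 (SE; edgeR adjusted p = 9.33e-05). For the second of them (Cluster-9242.6812) there were 20.3, 11.0 and 9.35 CPM in bent stems, against 5.54, 4.85 and 5.31 CPM in unbent stems. Again the groups did not overlap. Its log2 fold change was 1.37 ± 0.26 (SE; edgeR adjusted p = 0.000798).

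The 4 other MAPKKK17 matches did not pass at 1 h. Cluster-9242.5172 had 11.2, 7.42 and 6.32 CPM in bent stems, against 4.29, 4.14 and 5.25 CPM in unbent stems, and its log2 fold change was 0.86 ± 0.25 (SE; edgeR adjusted p = 0.0589). Cluster-9242.7337 had 37.4, 32.3 and 28.04 CPM in bent stems, against 22.9, 22.8 and 19.9 CPM in unbent stems, with a log2 fold change of 0.57 ± 0.23 (SE; edgeR adjusted p = 0.319). In both, all bent libraries lay above all unbent ones. The log2 fold changes of the remaining pair, Cluster-9242.3288 and Cluster-29231.0, were 0.02 and -0.55. None of the 3 MAPKKK18 matches passed either. MAPKKK18 is the close relative of MAPKKK17 in Arabidopsis, and its matches had log2 fold changes of 0.97, -0.36 and -0.08 (Cluster-29169.0, Cluster-27285.0 and Cluster-20623.0).

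A MAPKK and 2 MAPKs were also higher in bent stems at 1 h. MPK3 (Cluster-9242.61366), the stress and immunity MAPK, had 81.5, 68.3 and 59.4 CPM in bent stems, against 48.8, 49.4 and 51.2 CPM in unbent stems, without overlap. Its log2 fold change was 0.49 ± 0.11 (SE; edgeR adjusted p = 0.00502). The other MPK3 match (Cluster-9242.61365) had 177.3, 124.5 and 98.56 CPM in bent stems, against 86.55, 101.5 and 100.9 CPM in unbent stems. Those groups overlapped, and it did not pass. MKK5 (Cluster-9242.35547) had 54.0, 39.7 and 41.9 CPM in bent stems, against 33.2, 28.6 and 33.1 CPM in unbent stems, and the groups lay apart. The log2 fold change was 0.51 ± 0.12 (SE; edgeR adjusted p = 0.0161). The other MKK5 match (Cluster-9242.50812) had a log2 fold change of 0.01 ± 0.10 (SE). MPK19 (Cluster-9242.66131), a cluster with no kinase domain listed, had 45.6, 36.9 and 30.9 CPM in bent stems, against 26.3, 25.2 and 30.7 CPM in unbent stems. The lowest bent library barely exceeded the highest unbent library. Its log2 fold change was 0.46 ± 0.13 (SE; edgeR adjusted p = 0.0478), and it passed under 19 of 38 other settings.

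MKK9 and MPK1 were lower in bent stems at 1 h. MKK9 (Cluster-9242.58900) had 46.6, 76.6 and 60.1 CPM in bent stems, against 108.6, 96.9 and 90.3 CPM in unbent stems. All bent libraries lay below all unbent ones. The log2 fold change was -0.69 ± 0.17 (SE; edgeR adjusted p = 0.0473), and the cluster passed under 16 of 38 other settings. MPK1 (Cluster-9242.65259), a petunia match, had 45.8, 61.8 and 49.5 CPM in bent stems, against 71.0, 65.3 and 61.1 CPM in unbent stems. Here the groups overlapped by a single library of each. The log2 fold change was -0.33 ± 0.08 (SE; edgeR adjusted p = 0.0138).

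Replicate 1 of bent stems was the most extreme of the 3 bent libraries in all 7 of these clusters and in 73.5% of all clusters called at 1 h. Among clusters tested, it was so in 28 of the 60 (46.7%), against 39.8% of all clusters. Without that library 1 of the 60 passed, MAPKKK17 (Cluster-9242.33770). Without replicate 1 of unbent stems 4 passed, and without its replicate 2 also 4. In a fit of only the bent and unbent libraries of 1 h, the adjusted p of MAPKKK17 (Cluster-9242.33770) was 0.286 and 4 clusters passed, all higher in bent stems, of which 2 were among the 7. Ribosomal RNA averaged 4.71% ± 1.97 in bent stems and 2.97% ± 0.269 in unbent stems (SD, n = 3 each). Without the 3 libraries highest in it, 6 of the 60 passed.

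**Figure D2:**
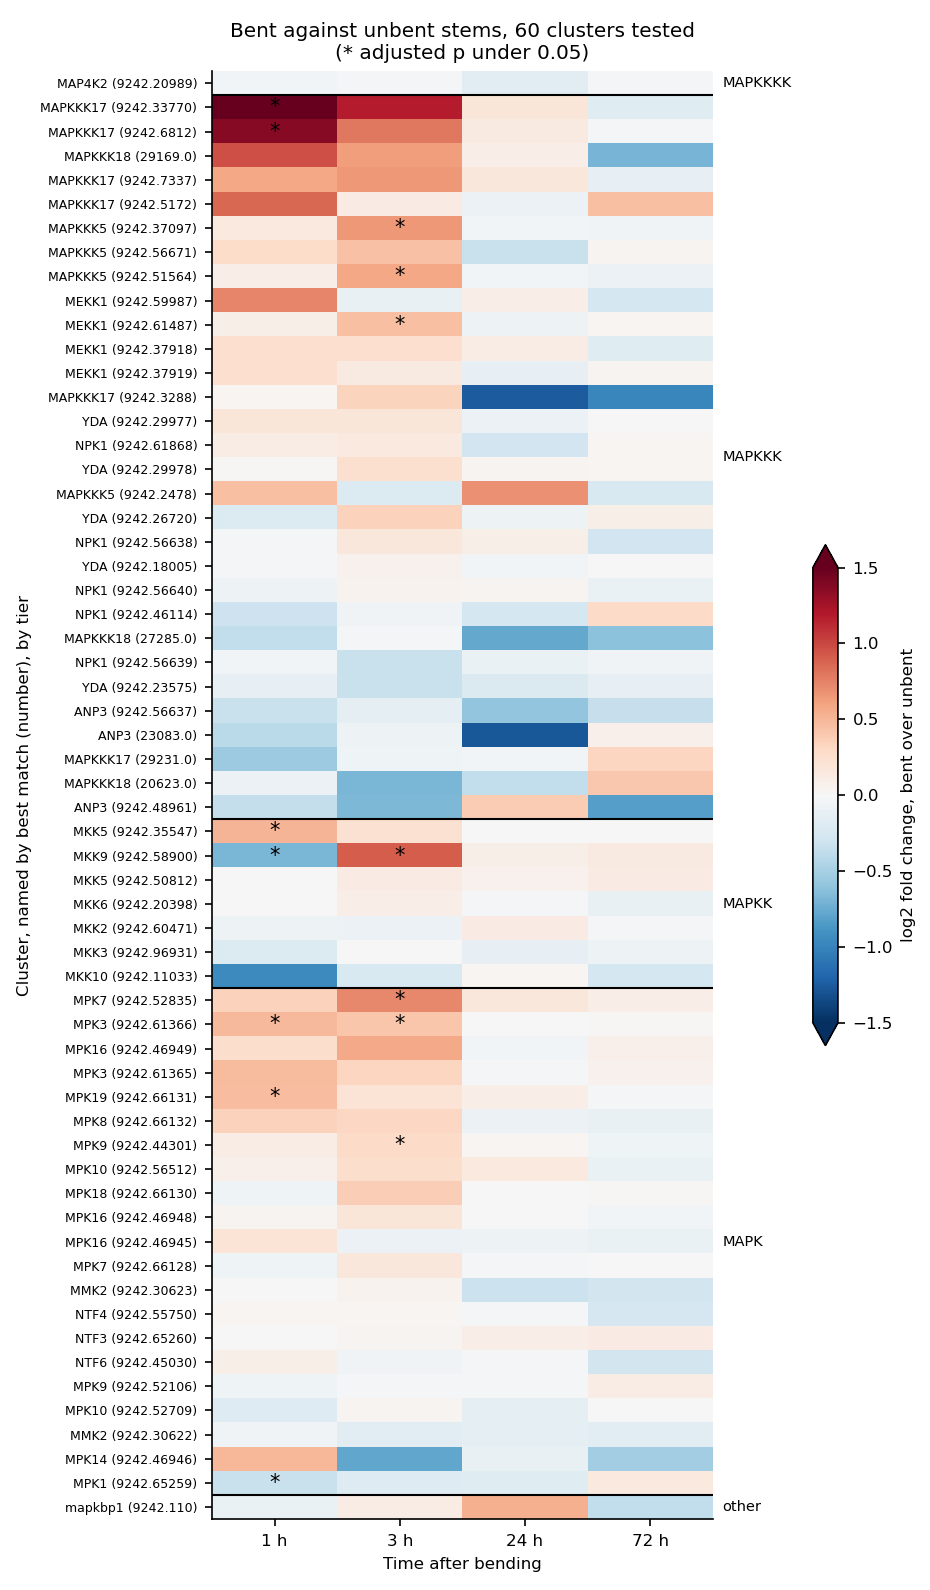
Log2 fold change of bent over unbent stems at 1, 3, 24 and 72 h for the 60 clusters tested, grouped by tier and ordered within a tier by the mean of 1 and 3 h. Colours end at 1.5 in either direction. Asterisks mark an adjusted p under 0.05: 7 clusters at 1 h, 7 at 3 h and none later.

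At 3 h, again 7 of the 60 clusters passed (11.7%, against 5.08% of all clusters), and all 7 were higher in bent stems (background 3.05%). None was lower in bent stems in edgeR's test (background 2.03%). The median log2 fold change of the 60 was 0.13 and that of all clusters 0.01. In the group were 3 MAPKKKs, a MAPKK and 3 MAPKs. All bent libraries lay above all unbent ones in 14 of the 60 and below them in 4, against 20.8% of all clusters without overlap.

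The MAPKKKs that passed at 3 h were 2 of the 4 MAPKKK5 clusters and 1 MEKK1 cluster, none of which had passed at 1 h. MAPKKK5 (Cluster-9242.37097) had 96.7, 76.1 and 65.7 CPM in bent stems, against 58.1, 47.2 and 46.8 CPM in unbent stems. The groups did not overlap, and the log2 fold change was 0.65 ± 0.10 (SE; edgeR adjusted p = 4.27e-05). Its namesake (Cluster-9242.51564) had 21.4, 14.5 and 18.1 CPM in bent stems, against 11.2, 13.1 and 11.8 CPM in unbent stems, also apart. That gave a log2 fold change of 0.58 ± 0.13 (SE; edgeR adjusted p = 0.00362). MEKK1 (Cluster-9242.61487) had 83.3, 70.0 and 65.6 CPM in bent stems, against 56.4, 56.3 and 47.1 CPM in unbent stems. All bent libraries were the higher ones, and the log2 fold change was 0.45 ± 0.09 (SE; edgeR adjusted p = 0.000358). At 1 h the log2 fold changes of these 3 clusters were 0.14, 0.10 and 0.08.

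MKK9 was the MAPKK that was higher at 3 h. It had 168, 165 and 161 CPM in bent stems, against 98.7, 86.3 and 77.2 CPM in unbent stems. The bent libraries lay close together and far above the unbent ones, with a log2 fold change of 0.91 ± 0.17 (SE; edgeR adjusted p = 0.00273). At 1 h the same cluster had been lower in bent stems. The change between the times was tested directly: the log2 fold change at 3 h exceeded that at 1 h by 1.60 ± 0.24 (SE; edgeR adjusted p = 0.00206). MKK9 was the single kinase cluster of 60 to pass this test (1.67%), against a background of 0.841% (0.559% with a larger effect at 3 h and 0.282% with a smaller one). It passed under all 38 other settings, with a difference of 1.44 to 1.80, and 2 clusters passed without replicate 3 of bent stems at 1 h, without replicate 3 of bent stems at 3 h and without replicate 1 of unbent stems at 3 h.

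Of the MAPKs, MPK7, MPK3 and MPK9 were higher at 3 h. MPK7 (Cluster-9242.52835), which in Arabidopsis can act below MKK3, had 40.3, 37.9 and 32.7 CPM in bent stems, against 23.5, 24.5 and 19.5 CPM in unbent stems. The groups lay well apart, and the log2 fold change was 0.72 ± 0.13 (SE; edgeR adjusted p = 0.000218). MPK3 (Cluster-9242.61366) had 35.2, 27.6 and 27.4 CPM in bent stems, against 22.3, 22.4 and 22.7 CPM in unbent stems, without overlap. Its log2 fold change was 0.42 ± 0.11 (SE; edgeR adjusted p = 0.0144), and it was the single cluster of the 60 called as higher in bent stems at both 1 and 3 h. The other MPK3 match (Cluster-9242.61365) did not pass at 3 h. It had 46.09, 36.94 and 40.92 CPM in bent stems, against 36.98, 29.74 and 32.65 CPM in unbent stems, which just overlapped. MPK9 (Cluster-9242.44301) had 102.7, 90.2 and 101.9 CPM in bent stems, against 90.0, 70.6 and 80.1 CPM in unbent stems. The lowest bent and the highest unbent library nearly touched, and the log2 fold change was 0.29 ± 0.08 (SE; edgeR adjusted p = 0.0179). The more abundant MPK9 match (Cluster-9242.52106) had a log2 fold change of -0.03 ± 0.06 (SE).

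The MAPKKK17 matches that led at 1 h did not pass at 3 h. Cluster-9242.33770 had 2.06, 1.61 and 2.71 CPM in bent stems, against 0.851, 0.790 and 1.14 CPM in unbent stems. The groups were still apart, at far lower levels, with a log2 fold change of 1.18 ± 0.38 (SE; edgeR adjusted p = 0.065). Cluster-9242.6812 had a log2 fold change of 0.79 ± 0.29 (SE; edgeR adjusted p = 0.123).

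As at 1 h, replicate 1 of bent stems was the most extreme bent library in all 7 clusters and in 65.8% of all clusters called at 3 h. Among clusters tested, it was so in 32 of the 60 (53.3%), against 40.5% of all clusters. Without it 4 of the 60 passed, namely MAPKKK5 (Cluster-9242.37097), MPK7, MEKK1 and MKK9, and these 4 passed under all 38 other settings. Without replicate 1 of unbent stems at 3 h, 11 passed. MPK9 and MPK3 lost their calls in 6 and 5 settings, among them those without replicate 2 or replicate 3 of unbent stems. Photosynthetic transcripts moved with bending at 3 h: of 27 clusters of chlorophyll a-b binding proteins, 7 were lower in bent stems (25.9%, background 2.03%). None passed as higher. Their sum was 3830 to 4220 CPM in bent stems and 4650 to 5200 CPM in unbent stems. At 1 h 3 of the 27 were lower (11.1%, background 0.814%). Their part in the kinase results was not tested. Of 20 xylem clusters 2 were higher at 3 h (10%, background 3.05%) and none passed at 1 h. Most of the 20 leaned the other way. Their median log2 fold change was -0.28 at 1 h and -0.24 at 3 h, with 20% and 10% of them above 0. None of the phloem, epidermis, or meristem and cell cycle clusters passed at either time in edgeR's test. At 1 h 4 of 15 meristem and cell cycle clusters had an unadjusted p under 0.05, as did 5569 of all 52918 clusters.

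**Figure D3:**
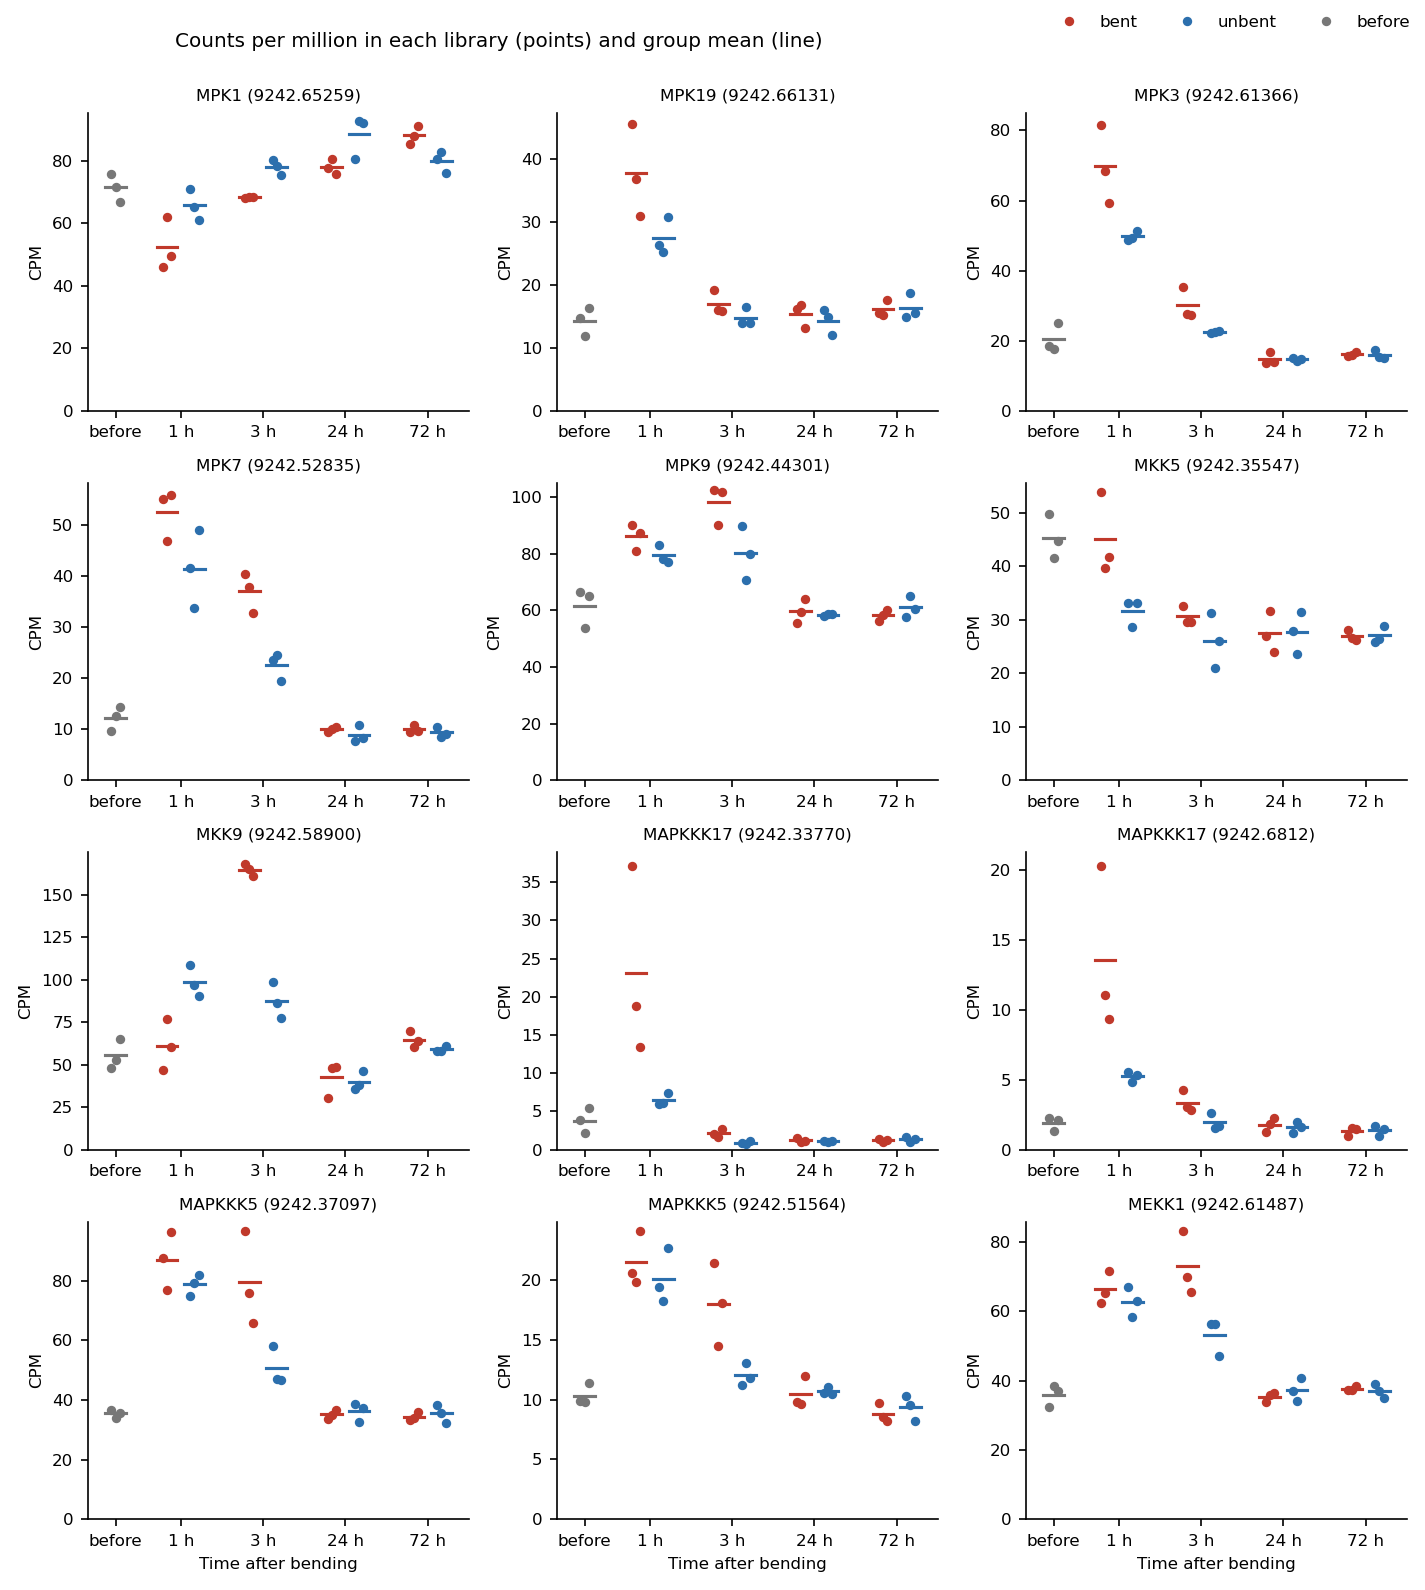
Level in CPM in each library (points) with group means (lines) for the 12 clusters called between bent and unbent stems at 1 or 3 h. MAPKKK17 (Cluster-9242.33770) reaches 37.1 CPM in replicate 1 of bent stems at 1 h, and MKK9 lies below unbent stems at 1 h and above them at 3 h.

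No kinase cluster passed at 24 or 72 h. At 24 h 0 of 60 passed edgeR's test, against a background of 0.0246% (0.0113% higher and 0.0132% lower). An unadjusted p under 0.05 was found for 6 of the 60, and for 3269 of all 52918 clusters. At 72 h 0 of 60 passed, against a background of 0% in either direction. There 5 of the 60 had an unadjusted p under 0.05, and 2883 of all 52918 clusters did. DESeq2 called 0 at both times as well. Groups did not overlap in 9 of the 60 at 24 h (background 12.5%) and in 7 at 72 h (background 10.5%). The smallest edgeR adjusted p was 0.705 at 24 h and 0.807 at 72 h. MKK9 had 30.5, 48.0 and 48.9 CPM in bent stems at 24 h, against 35.5, 38.0 and 46.3 CPM in unbent stems, which overlapped. MPK3 (Cluster-9242.61366) had 13.5, 16.7 and 13.9 CPM in bent stems at 24 h, against 14.9, 14.2 and 14.9 CPM in unbent stems. The log2 fold changes of these 2 were 0.09 ± 0.18 and 0.00 ± 0.12 (SE).

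Whether the effect of bending differed among the 4 times was tested for every cluster. Of the 60, 5 passed (8.33%), against a background of 2.11%. They were MAPKKK5 (Cluster-9242.37097; edgeR adjusted p = 0.00594), MKK9 (0.00644), MAPKKK17 (Cluster-9242.33770; 0.0279), MEKK1 (Cluster-9242.61487; 0.0299) and MPK1 (0.0458). In MAPKKK5 and MEKK1 the largest log2 fold change was that at 3 h, and in MAPKKK17 that at 1 h. The log2 fold changes of MPK1 were -0.33, -0.19, -0.18 and 0.14 at 1, 3, 24 and 72 h. The count was 2 or 3 without replicate 1 of bent stems or replicate 1 or 2 of unbent stems at 1 h, without replicate 1 of bent stems or replicate 2 or 3 of unbent stems at 3 h, without any bent library of 24 or 72 h, and without replicate 3 of unbent stems at 24 h or replicate 1 at 72 h. Of 38 other settings, MKK9 passed under 38, MAPKKK5 under 36, MEKK1 under 28, MAPKKK17 under 21 and MPK1 under 13. The highest adjusted p among them was 0.618 for MAPKKK17, with limma-voom, and 0.226 for MEKK1, without replicate 1 of bent stems at 3 h.

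Summed by tier, MAPKKs showed the widest gap between bent and unbent stems at 3 h, and most of it was that of 1 cluster, MKK9. Their sum was 105 ± 8.42 FPKM in bent stems and 134 ± 7.33 FPKM in unbent stems at 1 h, and 198 ± 3.52 FPKM in bent stems and 136 ± 12.1 FPKM in unbent stems at 3 h (SD, n = 3 each). The libraries did not overlap at either time. MKK9, the most abundant part of the sum, alone averaged 45.9 FPKM in bent stems and 77.2 FPKM in unbent stems at 1 h. At 3 h it averaged 126 FPKM in bent stems and 67.5 FPKM in unbent stems, so the gap is not a trait of the whole tier. For MAPKKKs the sum was 238 ± 26.6 FPKM in bent stems and 209 ± 5.83 FPKM in unbent stems at 1 h, where the ranges met at 215 FPKM, and 166 ± 11.9 FPKM in bent stems and 142 ± 6.87 FPKM in unbent stems at 3 h. MAPK sums were 380 ± 9.04 FPKM in bent stems and 365 ± 9.05 FPKM in unbent stems at 1 h, and 348 ± 7.65 FPKM in bent stems and 336 ± 11.1 FPKM in unbent stems at 3 h. The sums were not tested.

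**Figure D4:**
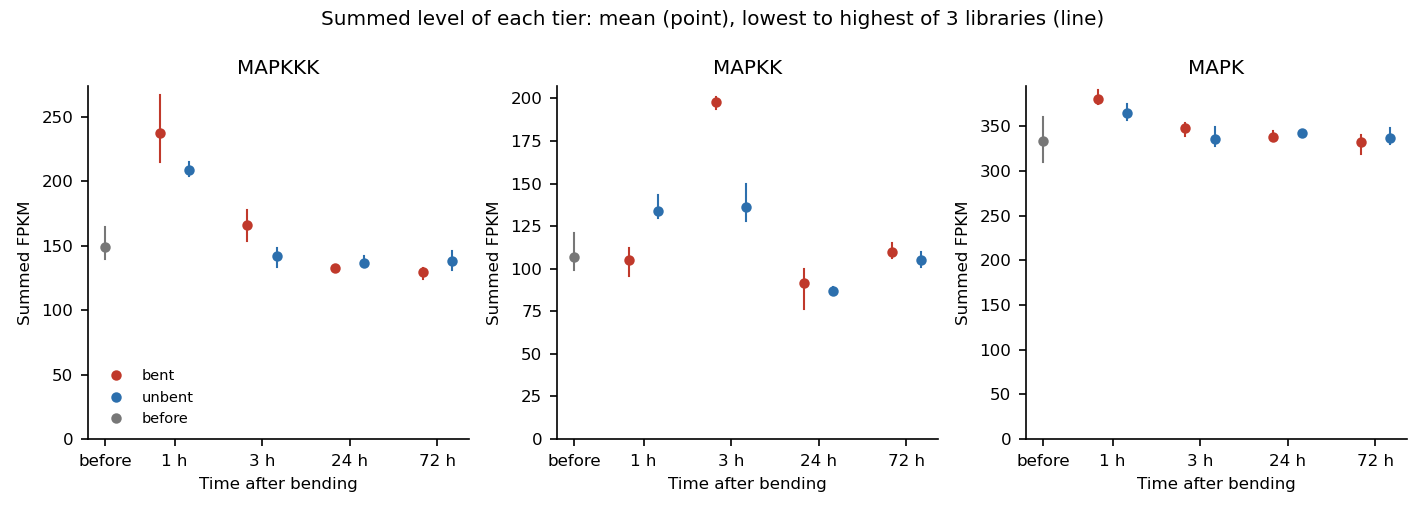
Summed FPKM of the 31 MAPKKK, 7 MAPKK and 22 MAPK clusters in each group, as the mean (points) and the lowest to highest of 3 libraries (lines). MAPKK sums average 198 FPKM in bent stems at 3 h and 136 FPKM in unbent stems, of which MKK9 makes up 126 and 67.5 FPKM.

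Many of the same clusters also changed with harvest time in stems that were never bent. Across the 5 unbent groups, 39 of the 60 clusters changed in edgeR's F test (65%), against a background of 28.8%. They were 16 of 21 MAPKs, 6 of 7 MAPKKs and 17 of 30 MAPKKKs. The highest mean lay at 1 h in 19 of the 39, among them 12 of the 17 MAPKKKs. It lay before bending in 4, at 3 h in 5, at 24 h in 4 and at 72 h in 7. These times are not set beside those of all clusters that changed. All 12 clusters called between bent and unbent stems were among the 39, and 21 clusters passed neither test. Both kinds of test use the same unbent libraries, so they are not independent. This overlap was not set beside that of all clusters, so it is not read as a trait of the kinases. Some tissue markers moved over time as well. Of 27 photosynthetic clusters 24 changed in the same F test (88.9%), with 11 lower at 1 h, 16 lower and 1 higher at 3 h, 14 higher at 24 h and 9 higher and 2 lower at 72 h than before bending, and their sum in unbent stems was 4380 to 5160 CPM at 1 h and 7420 to 8290 CPM at 24 h, against 5420 to 6220 CPM before bending. Changes over time were also called in 9 of 15 meristem and cell cycle clusters (60%). They were called in 6 of 20 xylem (30%), 1 of 6 phloem (16.7%) and 1 of 5 epidermis clusters (20%), near or below the background of 28.8%. The part of these markers in the kinase results was not tested. By the labels, the treatment ran between 9 and 10 in the morning. Harvests at 24 and 72 h thus fell near the clock hour of the stems taken before bending. At 1 and 3 h, unbent stems differed from those taken before bending in clock hour and in time since the start of the experiment. Clock hour and elapsed time cannot be told apart at 1 and 3 h.

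Against stems before bending, unbent stems at 1 h had 16 higher and 3 lower clusters (31.7%, background 10.3%, of which 6.46% higher and 3.85% lower). At 3 h there were 12 higher and 11 lower (38.3%, background 14.1%, of which 8.24% higher and 5.88% lower). At 24 h there were 4 higher and 9 lower (21.7%, background 8.4%, of which 4.66% higher and 3.75% lower). At 72 h there were 5 higher and 11 lower (26.7%, background 10.3%, of which 5.58% higher and 4.76% lower). Groups did not overlap in 30, 26, 23 and 23 of the 60 at 1, 3, 24 and 72 h, against 25.8%, 28.2%, 24.8% and 26.1% of all clusters. These 4 comparisons share the libraries taken before bending, and they share the unbent libraries with the comparisons of bending above. The count at 24 h was 6 without replicate 3 taken before bending, that at 3 h was 15 without replicate 3 of unbent stems, and that at 72 h was 9 without replicate 1 of unbent stems.

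The largest swing was that of MAPKKK17 (Cluster-9242.7337). It had 22.9, 22.8 and 19.9 CPM in unbent stems at 1 h and 0.737, 1.05 and 0.362 CPM in unbent stems at 3 h, against 4.22, 1.68 and 5.25 CPM before bending. The 1 h libraries lay above and the 3 h libraries below all those taken before. The log2 fold changes over stems before bending were 2.54 ± 0.27 at 1 h and -2.42 ± 0.37 at 3 h (SE; edgeR adjusted p = 5.59e-08 and 2.5e-05). The ratio of its highest to its lowest group mean was 30.5, against a median of 1.52 over the 60 clusters. Other clusters of the name behaved differently. In Cluster-9242.5172 the means were 7.46 CPM before bending and 4.56, 2.53, 2.02 and 1.53 CPM at 1, 3, 24 and 72 h, and it was lower than before bending at the last 3 of these times. In Cluster-9242.33770 they were 3.79 CPM before bending and 6.50, 0.926, 1.09 and 1.37 CPM at those times, again lower at the last 3. Cluster-9242.6812 was higher at 1 h alone among the 4 times, by 1.43 ± 0.29 on the log2 scale (SE; edgeR adjusted p = 0.000244).

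MPK7 and MPK3 were the MAPKs that moved most. MPK7 (Cluster-9242.52835) had 41.5, 33.7 and 49.0 CPM in unbent stems at 1 h, against 9.71, 12.5 and 14.3 CPM before bending. All libraries of 1 h lay far above, with a log2 fold change of 1.76 ± 0.13 (SE; edgeR adjusted p = 2.5e-13). At 3 h its log2 fold change was 0.88 ± 0.14, and at 24 h -0.45 ± 0.14 (SE), with the call at 24 h lost in 10 of 38 other settings. MPK3 (Cluster-9242.61366) had 48.8, 49.4 and 51.2 CPM in unbent stems at 1 h, against 18.6, 17.7 and 24.9 CPM before bending. That was a log2 fold change of 1.28 ± 0.11 (SE; edgeR adjusted p = 9.61e-13), and at 24 and 72 h it was lower, by -0.48 and -0.37. Without replicate 3 taken before bending, neither of those later calls held, at adjusted p-values of 0.129 and 0.409. The second MPK3 match (Cluster-9242.61365) was also higher at 1 h and lower at 3, 24 and 72 h, and these 3 later calls were lost without the same replicate, at adjusted p-values of 0.111, 0.0716 and 0.215. MPK19 was higher at 1 h by 0.93 ± 0.14 (SE; edgeR adjusted p = 1.01e-06), and MPK16 (Cluster-9242.46948) was higher at 1 h by 0.29 and lower at 3 h, with a log2 fold change of -0.34.

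The MAPKKK5 and MEKK1 clusters that were higher in bent stems at 3 h were higher at 1 h in unbent stems. MAPKKK5 (Cluster-9242.37097) had 75.1, 79.3 and 82.1 CPM in unbent stems at 1 h, against 36.8, 34.0 and 35.8 CPM before bending. Its log2 fold change was 1.15 ± 0.10 at 1 h and 0.51 ± 0.10 at 3 h (SE; edgeR adjusted p = 7.93e-11 and 0.000375). MEKK1 (Cluster-9242.61487) had 67.0, 58.3 and 62.9 CPM in unbent stems at 1 h, against 32.4, 38.4 and 36.9 CPM before bending, and log2 fold changes of 0.80 ± 0.09 at 1 h and 0.57 ± 0.09 at 3 h (SE; edgeR adjusted p = 9e-10 and 3.26e-06). At 3 h, where bent and unbent stems differed, unbent stems averaged 50.7 ± 6.41 CPM of MAPKKK5 and 53.2 ± 5.33 CPM of MEKK1 (SD, n = 3 each). The 2 further MAPKKK5 clusters among those named here were higher at 1 h by 0.96 ± 0.14 (Cluster-9242.51564) and 0.86 ± 0.16 (Cluster-9242.56671, SE).

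The MKK5 pair moved in opposite ways at 3 h. Cluster-9242.35547 averaged 45.4 ± 4.19 CPM before bending and 31.6 ± 2.62, 26.1 ± 5.13, 27.7 ± 3.96 and 27.1 ± 1.57 CPM in unbent stems at 1, 3, 24 and 72 h (SD, n = 3 each), and it was lower than before bending at all 4 times. Cluster-9242.50812 averaged 38.8 ± 4.35 CPM before bending and 37.1 ± 3.81, 62.3 ± 7.61, 36.1 ± 3.24 and 39.9 ± 3.60 CPM at those times. It was higher at 3 h, by 0.68 ± 0.10 on the log2 scale (SE; edgeR adjusted p = 6.95e-07), and its 3 libraries of that time lay above all before bending. MKK9 was higher in unbent stems at 1 h, by 0.83 ± 0.17, and at 3 h, by 0.65 ± 0.17 (SE; edgeR adjusted p = 0.00285 and 0.0147). A rice MPK10 pair split too: Cluster-9242.52709 was higher at 3, 24 and 72 h, by 0.36 to 0.45, and Cluster-9242.56512 was lower at all 4 times, by -0.45 to -0.56.

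**Figure D5:**
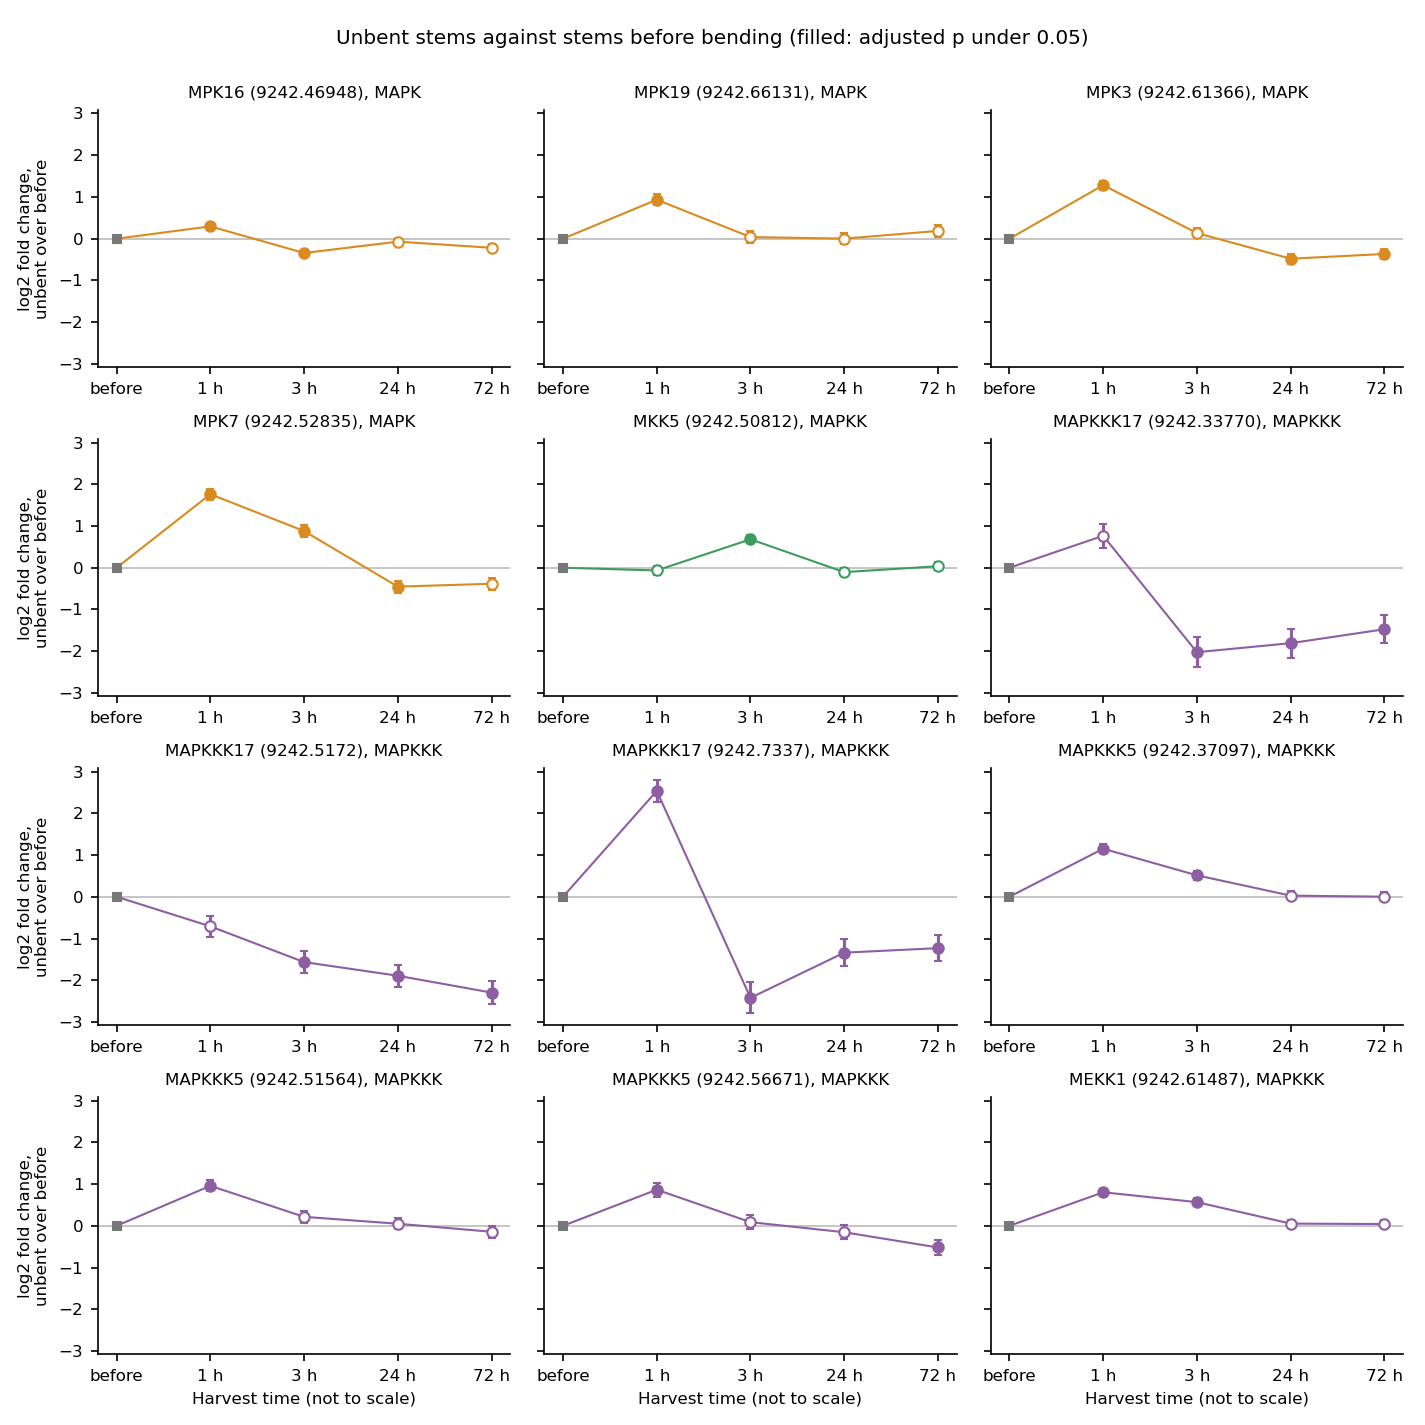
Log2 fold change of unbent stems over stems before bending at 1, 3, 24 and 72 h for the 12 clusters with the smallest p in the test over time, with SE bars. Filled points passed at an adjusted p under 0.05. MAPKKK17 (Cluster-9242.7337) stands at 2.54 at 1 h and at -2.42 at 3 h.

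The division and patterning branches were looked at after their values were seen. Of the 5 NPK1, 3 ANP3 and 5 YDA matches, which in tobacco or Arabidopsis act in cytokinesis or in stomatal and embryo development, none was called between bent and unbent stems in edgeR's test at any of the 4 times. With 1.93%, 5.08%, 0.0246% and 0% of all clusters called at 1, 3, 24 and 72 h, a count of 0 among 13 clusters does not set these branches apart. NPK1 (Cluster-9242.56640) had 46.5, 50.4 and 48.6 CPM in bent stems at 1 h, against 51.4, 48.4 and 53.0 CPM in unbent stems. The groups overlapped, and the log2 fold changes of bent over unbent stems were -0.07, 0.05, 0.04 and -0.10 at 1, 3, 24 and 72 h. Over time in unbent stems, 1 NPK1, no ANP3 and 3 YDA clusters changed in edgeR's F test, that is 4 of 13, which is near the background of 28.8%. Of these, YDA (Cluster-9242.18005) was lower than before bending by -0.54 at 3 h and by -0.55 at 72 h, and YDA (Cluster-9242.29977) by -0.39 and -0.58 at those times.

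Genes around the relay were described from lists of names. Of 20 MAPK phosphatase clusters, 1 was higher and 1 lower at 1 h (10% called, background 1.93%), and 2 were higher at 3 h (10%, background 5.08%). These shares rest on 2 clusters each. At2g30020 is AP2C1 in Arabidopsis, a phosphatase that inactivates MPK4 and MPK6. A match to it (Cluster-9242.24964) had 156, 70.4 and 56.5 CPM in bent stems at 1 h, against 27.7, 30.5 and 41.6 CPM in unbent stems. Every bent library lay above every unbent one. The log2 fold change was 1.498 ± 0.34 (SE; edgeR adjusted p = 0.0246). Without replicate 1 of bent stems it was 0.93, with an edgeR adjusted p of 0.268, and in a fit of only the compared groups the adjusted p was 0.409. The other matches to At2g30020, Cluster-9242.24407 and Cluster-9242.24965, were not called at 1 or 3 h. DSP8 (Cluster-9242.49186) was lower at 1 h by -0.29 ± 0.08 (SE; edgeR adjusted p = 0.0302). The other DSP8 matches, Cluster-9242.53025 and Cluster-9242.59727, were not called at 1 or 3 h. The 2 matches to IBR5, a dual-specificity phosphatase, were higher at 3 h. The first (Cluster-9242.19841) had 18.6, 17.1 and 16.3 CPM in bent stems, against 9.58, 12.4 and 10.8 CPM in unbent stems, with a log2 fold change of 0.67 ± 0.16 (SE; edgeR adjusted p = 0.00445). The second (Cluster-9242.53881) had a log2 fold change of 0.31 ± 0.09 (SE; edgeR adjusted p = 0.0249). The median log2 fold change of the list was 0.02 at 1 h and 0.06 at 3 h.

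Of 24 clusters named as known MAPK substrates or their families, 2 were higher and 2 lower at 1 h (16.7% called, background 1.93%), and 2 were higher and 1 lower at 3 h (12.5%, background 5.08%). A match to ACC synthase (ACS1, Cluster-9242.4021), which makes the precursor of ethylene, had 14.0, 8.34 and 7.96 CPM in bent stems at 1 h, against 5.40, 4.72 and 4.07 CPM in unbent stems. The groups lay apart, and the log2 fold change was 1.09 ± 0.21 (SE; edgeR adjusted p = 0.00145), with an adjusted p of 0.0873 without replicate 1 of bent stems. VQ proteins bind WRKY transcription factors. VQ22 (Cluster-9242.11077) was higher at 1 h by 0.49 ± 0.12, whereas VQ4 (Cluster-9242.50054) and VQ9 (Cluster-9242.48309) were lower by -0.42 ± 0.11 and -0.37 ± 0.10 (SE; edgeR adjusted p = 0.0201, 0.0261 and 0.0355). Another VQ22 match (Cluster-9242.42806) and another VQ4 match (Cluster-9242.53579) were not called at 1 or 3 h. A further VQ4 match (Cluster-27993.0) was called as lower at 3 h. The list's median log2 fold change was 0.02 at 1 h and 0.01 at 3 h.

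Of 26 upstream kinases and receptors, 1 was lower at 1 h (3.85% called, background 1.93%) and 2 were higher at 3 h (7.69%, background 5.08%), which is near the background at both times. FLS2 (Cluster-9242.67894), the Arabidopsis receptor of bacterial flagellin, had 380, 224 and 196 CPM in bent stems at 3 h, against 97.5, 55.1 and 56.6 CPM in unbent stems. Every bent library lay above every unbent one, and the log2 fold change was 1.93 ± 0.26 (SE; edgeR adjusted p = 0.000111), with an adjusted p of 0.116 in a fit of only the 2 groups. The other FLS2 match (Cluster-20887.0) was not called at 1 or 3 h. EDR1 is a MAPKKK-like kinase that restrains defence in Arabidopsis. One of its matches (Cluster-9242.17929) was lower at 1 h by -0.51 ± 0.11, and another (Cluster-9242.54419) was higher at 3 h by 0.35 ± 0.11 (SE; edgeR adjusted p = 0.00439 and 0.0446). The call on the second was lost in 15 of 38 other settings. The remaining EDR1 matches, Cluster-9242.39232 and Cluster-9242.60229, were not called at 1 or 3 h. The list's median log2 fold change was 0.00 at 1 h and 0.01 at 3 h. At 24 and 72 h, no cluster of the 3 lists passed in edgeR's test. An unadjusted p under 0.05 was found for 0 to 5 clusters per list and time. Of all 52918 clusters, 3269 at 24 h and 2883 at 72 h had such a p.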

How the data were processed

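Poly(A) RNA of whole stems was sequenced as paired 150-base reads in 27 libraries. The authors' expected counts per cluster of a de novo assembly were deposited unscaled and came from RSEM 1.2.28, per the submitters' processing notes. The authors also deposited FPKM, that is counts per kilobase and per library depth, with annotations by best database match. The assembler and its filters are not given in the sources used here.

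Expected counts were rounded to whole numbers, since 8.05% of the values were not whole. Clusters were filtered with edgeR's filterByExpr, which left 52918, scaled by TMM and fitted over all 27 libraries with edgeR 4.0.16 (robust quasi-likelihood) in R 4.3.3. Adjusted p is Benjamini-Hochberg over all clusters, with a threshold of 0.05. SE is the log2 fold change divided by the root of F, which is approximate. The code was tested on simulated data. FPKM served for levels between genes and for sums over a tier, and CPM for single clusters and marker sums between groups. Alternatives were other scalings and filters, DESeq2 1.42.0, limma-voom and log2 FPKM with limma 3.58.1, a fit of the compared groups, a replicate block, stricter membership and leaving out each library. Leaving out the libraries highest in ribosomal RNA, and the clusters without a kinase domain, was chosen after seeing the data.

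Named were clusters called for bending, the 12 with the smallest p over time, the 3 most abundant per tier, up to 4 called clusters per pathway list (phosphatases, substrates, upstream kinases), and the neighbours of the count limit. Other clusters sharing a name with these were named after their values were seen. The clusters and lists were chosen with earlier results of these data known. Same-numbered libraries were not paired by the labels. No sequences are given.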

Additional observations from a re-analysis of the deposited data

Results flagged for a closer look

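In 5 clusters the effect of bending differed between times. MKK9 (Cluster-9242.58900) had a log2 fold change of bent over unbent stems that was 1.60 higher at 3 h than at 1 h, with all bent libraries below all unbent ones at 1 h and above them at 3 h. In edgeR's F test of the bending effect over the 4 times, adjusted p was 0.00594 for MAPKKK5 (Cluster-9242.37097), 0.00644 for MKK9, 0.0279 for MAPKKK17 (Cluster-9242.33770), 0.0299 for MEKK1 (Cluster-9242.61487) and 0.0458 for MPK1 (Cluster-9242.65259). Of 38 other settings, these calls held in 36, 38, 21, 28 and 13, in the same order. The groups have 3 libraries each, too few for a test of single outlying samples.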

How the results depend on the processing

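Across the alternatives no named value that had been called changed sign. The count of kinase clusters called at 1 h, 7, was 4 in a fit of the compared groups, 3 and 4 with limma on log2(FPKM + 0.1) and log2(FPKM + 1), and 1 to 8 with a library left out. At 3 h it was 4 to 11 with a library left out. At 24 and 72 h it was 0 in every fit run. For the difference between 3 and 1 h the count of 1 was 2 without a filter, with upper quartile scaling and with the replicate block, and 1 to 2 with a library left out. For the effect over the 4 times the count of 5 was 9 without a filter, 1 with either limma fit of FPKM, and 2 to 7 with a library left out. Unbent against before gave 17 to 21, 15 to 23, 6 to 15 and 9 to 16 at 1, 3, 24 and 72 h with a library left out, and 9 at 72 h with either limma fit of FPKM; the test over time gave 36 to 41. The cause of these shifts was not tested. With the replicate block, 5 clusters were called at 1 h and 8 at 3 h. Same-numbered libraries correlated by -0.03 to 0.058. The labels do not pair them, and with 3 libraries per group these correlations cannot exclude shared handling. Low counts limit the MAPKKK17 and MAPKKK18 matches, and best-match names and shared reads limit what a symbol stands for.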
